A study of Mus musculus with 6 samples.

Results

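Aminoacyl-tRNA synthetases were followed in mouse liver after a fast of 24 hours, in 3 livers labelled Cpt2KO and 3 labelled WT. The members were the genes with a synthetase symbol (1 capital letter followed by "ars", with or without a digit, the subunits Farsa and Farsb, and Eprs), and asparagine synthetase, Asns, was kept beside them as a separate case. This gave 35 genes of 20242, made up of 18 cytosolic synthetases, 16 mitochondrial synthetases (symbols ending in 2) and Asns. Of the family, Aars had no probe set of its own because the annotation pairs it with Exosc6, and Dars was not analysed here.

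The Cpt2KO mice carried floxed Cpt2 alleles with an Albumin-Cre transgene, which is active in hepatocytes, so the other cells of the liver keep the gene. The WT controls carried the same floxed alleles (Cpt2f/f) without Cre. All were C57BL/6 males, with 1 array for each sample. The listed ages were 12, 13 and 14 weeks in Cpt2KO mice and 9, 10 and 11 weeks in WT mice, whereas the growth protocol gives 9 weeks for all. Listed age and genotype therefore run together.

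A synthetase joins 1 kind of amino acid to its tRNA, the step that fixes the meaning of the genetic code. Cytosol and mitochondria use separate enzymes, nearly all encoded by separate nuclear genes, with Kars and Gars serving both compartments. Mitochondria have no glutaminyl enzyme of their own, and their glutamine tRNA is charged with glutamate and then amidated. When uncharged tRNA or other stresses lead to phosphorylation of the initiation factor eIF2, the transcription factor ATF4 is made in greater amounts. Many cytosolic synthetase genes and Asns are known ATF4 targets in mammalian cells.

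The promoters are shown for Asns, for the 5 synthetase genes that rose and had an entry in the RefSeq promoter table, and for Yars, because ATF4 binds with C/EBP partners at an element whose core reads TGATGNAA. Entries were found for 26 of the 35 genes. The core was searched on both strands of each 300-base window (250 bases before and 50 after the start, GRCm38.p6). Each line gives the 90 bases before and the first 30 bases from the start, read 5′ to 3′ along the gene, with a match to the core on either strand in capitals.
Asns, chr6:7693180-7693299, minus strand: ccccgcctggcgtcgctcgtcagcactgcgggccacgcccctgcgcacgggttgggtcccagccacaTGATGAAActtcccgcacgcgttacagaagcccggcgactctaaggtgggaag
Gars, chr6:55037911-55038030, plus strand: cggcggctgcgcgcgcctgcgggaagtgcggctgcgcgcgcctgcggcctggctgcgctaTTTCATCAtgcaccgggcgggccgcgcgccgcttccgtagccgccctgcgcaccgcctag
Tars, chr15:11399629-11399748, minus strand: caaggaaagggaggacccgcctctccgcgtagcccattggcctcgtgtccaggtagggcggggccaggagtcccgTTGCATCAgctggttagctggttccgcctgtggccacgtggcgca
Iars, chr13:49682040-49682159, plus strand: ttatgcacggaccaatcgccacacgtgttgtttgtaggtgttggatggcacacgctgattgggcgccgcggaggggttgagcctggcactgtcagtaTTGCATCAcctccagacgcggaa
Yars, chr4:129189813-129189932, plus strand: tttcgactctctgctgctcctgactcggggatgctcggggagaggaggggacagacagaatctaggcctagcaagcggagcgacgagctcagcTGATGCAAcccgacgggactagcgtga
Sars, chr3:108445230-108445349, minus strand: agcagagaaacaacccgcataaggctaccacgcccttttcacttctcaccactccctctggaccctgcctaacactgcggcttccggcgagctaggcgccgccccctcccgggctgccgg
Mars1, chr10:127311757-127311876, minus strand: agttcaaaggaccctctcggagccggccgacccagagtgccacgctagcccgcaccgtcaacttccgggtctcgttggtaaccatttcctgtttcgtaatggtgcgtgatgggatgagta

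The core was present in 4 of 11 cytosolic synthetase genes with a promoter entry (36.4%), in 0 of 14 mitochondrial ones and in Asns, against 1304 of 32851 promoters in the whole table (3.97%). At that share, 0 of 14 says little. Members and lists are counted per gene, with a match in any of its entries. The whole table is counted per entry, with 27025 genes in 32851 entries. The first letter of the match lay at position -23 from the start in Asns, -30 in Gars, -15 in Tars, 7 in Iars and 3 in Yars, with the start as position 0. Of the 5 genes that rose and had an entry, Gars, Tars and Iars held the core and Sars and Mars1 did not. Of the 6 cytosolic genes with an entry that did not pass the test, Yars held it. Among the ATF4 pathway genes described further on, a list drawn up for that pathway, 7 of 23 with an entry held it (30.4%). A match of 8 letters is a description of the sequence, and binding was not measured here.

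Values are RMA log2 signals, in which 1 unit is a doubling, and changes are Cpt2KO minus WT. Arrays correlated at r = 0.9854 to 0.9871 within Cpt2KO, 0.9878 to 0.9892 within WT and 0.9691 to 0.9769 between genotypes, over 20242 genes. The targeted gene went with the labels, with Cpt2 at 6.48, 6.73 and 6.75 in Cpt2KO livers, against 7.56, 7.72 and 7.63 in WT livers (change -0.99, adjusted p = 0.0013 by limma). With every probe set tested the adjusted p of Cpt2 was 0.0692, and with listed age as a covariate it was 0.0753 at a change of -1.24. The hepatocyte marker Alb stood at 11.23, 11.26 and 11.57 in Cpt2KO livers, against 12.11, 12.08 and 11.94 in WT livers. A change counts as a rise or a fall where limma's two-sided test gave an adjusted p under 0.05 over all 20242 genes. On that rule 8.24% of all genes were called, 4.74% as higher and 3.49% as lower in Cpt2KO livers. Among genes above the median level, 8.48% were called higher. An unadjusted p under 0.05, in either direction, was found for 20.2% of all genes.

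Of the 18 cytosolic synthetases, 6 rose in Cpt2KO livers (33.3%), 0 fell and 12 did not pass, and 10 had an unadjusted p under 0.05. Sars, Tars, Cars, Gars, Iars and Mars1 rose, by 0.47 to 0.74 on the log2 scale. The change was above 0 in 16 of the 18 and the median was 0.32, or 1.25-fold, against a median of -0.01 over all genes. Of the 16 mitochondrial synthetases, 0 rose and 0 fell by limma, 2 had an unadjusted p under 0.05, and the median change was 0.06. With 4.74% of all genes called higher and 3.49% lower, 0 calls among 16 genes says little. The count of cytosolic calls depended on which array was left out. It was 1 without WT replicate 1 and 2 without WT replicate 2, WT replicate 3, Cpt2KO replicate 1 or Cpt2KO replicate 3, and 5 without Cpt2KO replicate 2. With listed age as a covariate, or with every probe set tested together, it was 0, and without moderated variances it was 1. The number of all 20242 genes called higher fell in these fits too. That number was 960 with all arrays and 538 to 722 with 1 array left out. With listed age it was 35, with every probe set tested 90 and without moderated variances 388.

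**Figure D1:**
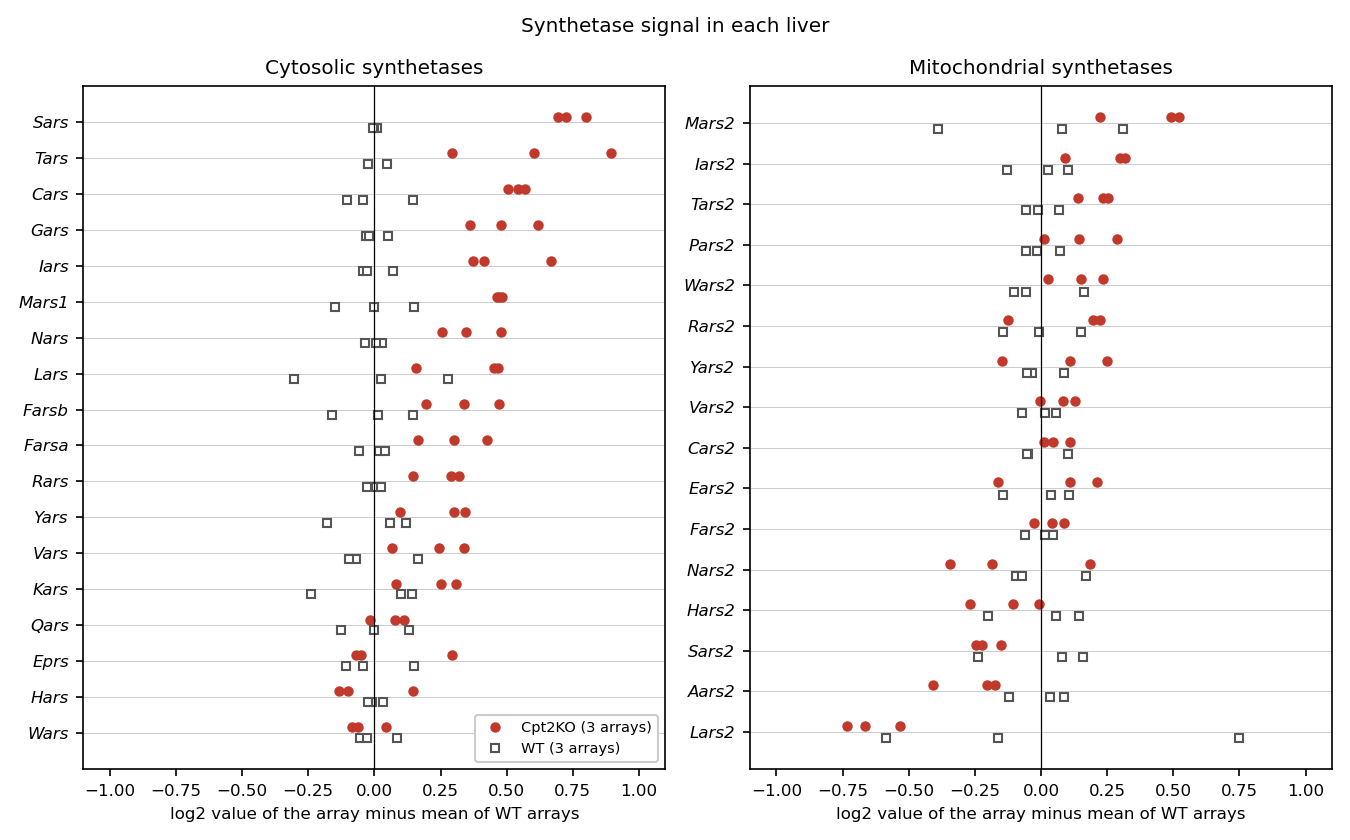
Log2 signal of each array minus the mean of the WT arrays of the same gene (x axis) for each cytosolic (left) and mitochondrial (right) synthetase, ordered by change; red dots are the 3 Cpt2KO arrays and open squares the 3 WT arrays. In the left panel all Cpt2KO dots lie to the right of all WT squares in 10 of 18 genes; in the right panel this is so for 1 of 16 genes, Tars2, and the opposite for 1, Aars2.

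Sars, the seryl-tRNA synthetase, had the largest change of the 34 synthetases. Its signal was 6.55, 6.52 and 6.62 in Cpt2KO livers, against 5.83, 5.82 and 5.82 in WT livers, a change of 0.74 (SE 0.09, 1.67-fold, adjusted p = 0.0018 by limma). The groups lay far apart in relation to their spread (SD 0.05 in Cpt2KO and 0.01 in WT, n = 3 each). A further probe set naming Sars gave 6.501, 6.396 and 6.728 in Cpt2KO livers, against 5.69, 5.64 and 5.74 in WT livers, a difference of 0.85. Sars passed in all 6 fits that left out 1 array (adjusted p 0.00699 to 0.0109 by limma). It did not pass with every one of the 115050 probe sets tested together (adjusted p = 0.104 by limma). With listed age as a covariate it did not pass either (change 0.69, adjusted p = 0.263 by limma). Listed ages do not overlap between the genotypes, so that fit separates age from genotype poorly.

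Tars, the threonyl-tRNA synthetase, had 8.27, 7.67 and 7.98 in Cpt2KO livers, against 7.35, 7.35 and 7.42 in WT livers. The Cpt2KO values were all higher but spread widely (SD 0.30 in Cpt2KO and 0.04 in WT, n = 3 each), and the change of 0.60 (SE 0.15) had an adjusted p of 0.046 by limma. Cars, for cysteine, had 5.58, 5.62 and 5.64 in Cpt2KO livers, against 4.97, 5.22 and 5.03 in WT livers, and changed by 0.54 (SE 0.10, adjusted p = 0.014 by limma). In Cars it was the WT livers that spread, with replicate 2 closest to the Cpt2KO values. Gars, for glycine in both compartments, had 6.32, 6.06 and 6.18 in Cpt2KO livers, against 5.75, 5.67 and 5.68 in WT livers, a change of 0.49 (SE 0.10, adjusted p = 0.023 by limma). Its Cpt2KO values again lay above all WT values.

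Iars and Mars1, for isoleucine and methionine, belong to the multi-synthetase complex, in which several cytosolic synthetases are held together by scaffold proteins. Iars had 7.039, 6.998 and 7.293 in Cpt2KO livers, against 6.70, 6.58 and 6.60 in WT livers, a change of 0.48 (SE 0.11, adjusted p = 0.032 by limma). Mars1 had 6.80, 6.78 and 6.79 in Cpt2KO livers, against 6.32, 6.17 and 6.47 in WT livers, a change of 0.47 (SE 0.10, adjusted p = 0.029 by limma). Neither pair of groups overlapped, and the Cpt2KO values of Mars1 were nearly identical. When 1 array was left out, Cars passed in 4 of 6 fits and Tars, Gars, Iars and Mars1 in 1 of 6 each. Their changes in those fits stayed between 0.39 and 0.75, with adjusted p-values of 0.0156 to 0.135 by limma. With listed age as a covariate these 5 changes were 0.36 to 0.76, at adjusted p-values of 0.358 to 0.796 by limma.

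**Figure D2:**
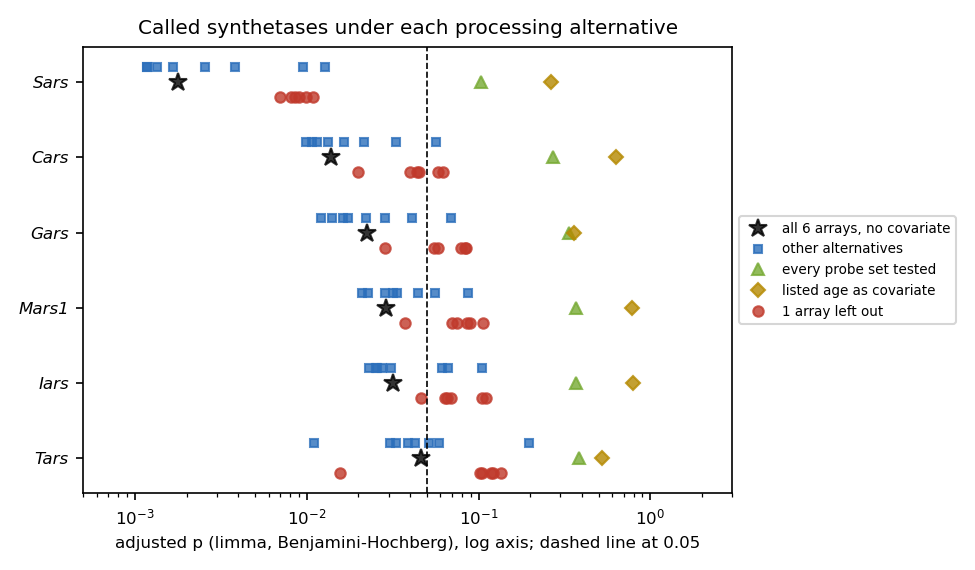
Adjusted p of the 6 cytosolic synthetases that rose (x axis, log scale, dashed line at 0.05) with all arrays (star), with 1 array left out (red dots), with every probe set tested (triangle), with listed age as a covariate (diamond) and in the other alternatives (squares). Sars stays left of the line in all 6 fits with 1 array left out; Tars, Gars, Iars and Mars1 do so in 1 of 6 each.

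Of the 12 cytosolic synthetases that did not pass, 4 had Cpt2KO values above all WT values. With the 6 that rose this makes 10 of 18, where 13.9% of all genes had groups apart in this direction, 11.1% in the other and 25.1% in either. Nars, for asparagine, came nearest to the threshold, with 7.70, 7.61 and 7.83 in Cpt2KO livers, against 7.32, 7.38 and 7.36 in WT livers (change 0.36, SE 0.10, adjusted p = 0.063 by limma). Both subunits of the phenylalanyl enzyme were of this kind. The catalytic subunit Farsa had 5.40, 5.66 and 5.53 in Cpt2KO livers, against 5.25, 5.17 and 5.27 in WT livers (change 0.30, adjusted p = 0.139 by limma). Its partner Farsb had 5.35, 5.50 and 5.63 in Cpt2KO livers, against 5.168, 4.996 and 5.303 in WT livers (change 0.34, adjusted p = 0.152 by limma). A dim probe set also naming Farsa went the other way, at 2.57, 2.61 and 2.03 in Cpt2KO livers, against 2.79, 3.13 and 2.91 in WT livers. Rars, for arginine, was the remaining gene, with a change of 0.25 (adjusted p = 0.174 by limma).

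The groups overlapped in the other 8. Lars, for leucine, had 5.75, 5.44 and 5.73 in Cpt2KO livers, against 5.56, 4.98 and 5.31 in WT livers (change 0.36, adjusted p = 0.269 by limma), with WT replicate 2 well below the rest. A dim further Lars probe set, at 1.11 to 1.69, differed by -0.25, and with the mean of probe sets the change was 0.055. Kars, the lysine enzyme of both compartments, had 6.09, 5.86 and 6.03 in Cpt2KO livers, against 5.92, 5.54 and 5.88 in WT livers (change 0.21, adjusted p = 0.439 by limma). Yars, whose promoter holds the ATF4 core, changed by 0.25 (95% interval -0.03 to 0.52, adjusted p = 0.307 by limma), and Vars by 0.22 (adjusted p = 0.372 by limma). A group of 4 lay near 0. Qars, the glutaminyl enzyme, had 6.32, 6.19 and 6.28 in Cpt2KO livers, against 6.34, 6.08 and 6.20 in WT livers (change 0.06, 95% interval -0.18 to 0.30). Eprs, which charges both glutamate and proline tRNA in a single protein, changed by 0.06 (95% interval -0.24 to 0.36), Hars by -0.03 (-0.27 to 0.21) and Wars by -0.03 (-0.25 to 0.18). A dim further Eprs probe set differed by -0.18, with overlapping groups. The Wars signal, 3.30 to 3.47 in the 6 arrays, was the lowest of the 18 cytosolic enzymes. The median over all 115050 probe sets, of which 87295 name no gene, was 2.88.

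By structure and assembly the rises were spread over the cytosolic enzymes. Of 7 measured members of the multi-synthetase complex, 2 rose (28.6%), with a median change of 0.25, and of 11 free enzymes 4 rose (36.4%), with a median of 0.34. Of the cytosolic synthetases with a class I catalytic fold, 3 of 9 rose, and of those with a class II fold 3 of 8, beside 4.74% of all genes. Of the mitochondrial synthetases, 0 of 9 with class I and 0 of 7 with class II rose, which says little at that share. Eprs holds both folds. Among the scaffold proteins of the complex, Aimp2 rose, with 6.18, 6.05 and 6.32 in Cpt2KO livers, against 5.41, 5.44 and 5.79 in WT livers (change 0.64, adjusted p = 0.022 by limma). Aimp1 changed by 0.17 and Eef1e1 by 0.37, and neither passed. Aimp2 kept its call in 2 of the 6 fits with 1 array left out, those without WT replicate 3 and without Cpt2KO replicate 2 (highest adjusted p over the 6 = 0.0855 by limma), and lost it with every probe set tested, without moderated variances and with listed age.

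**Figure D3:**
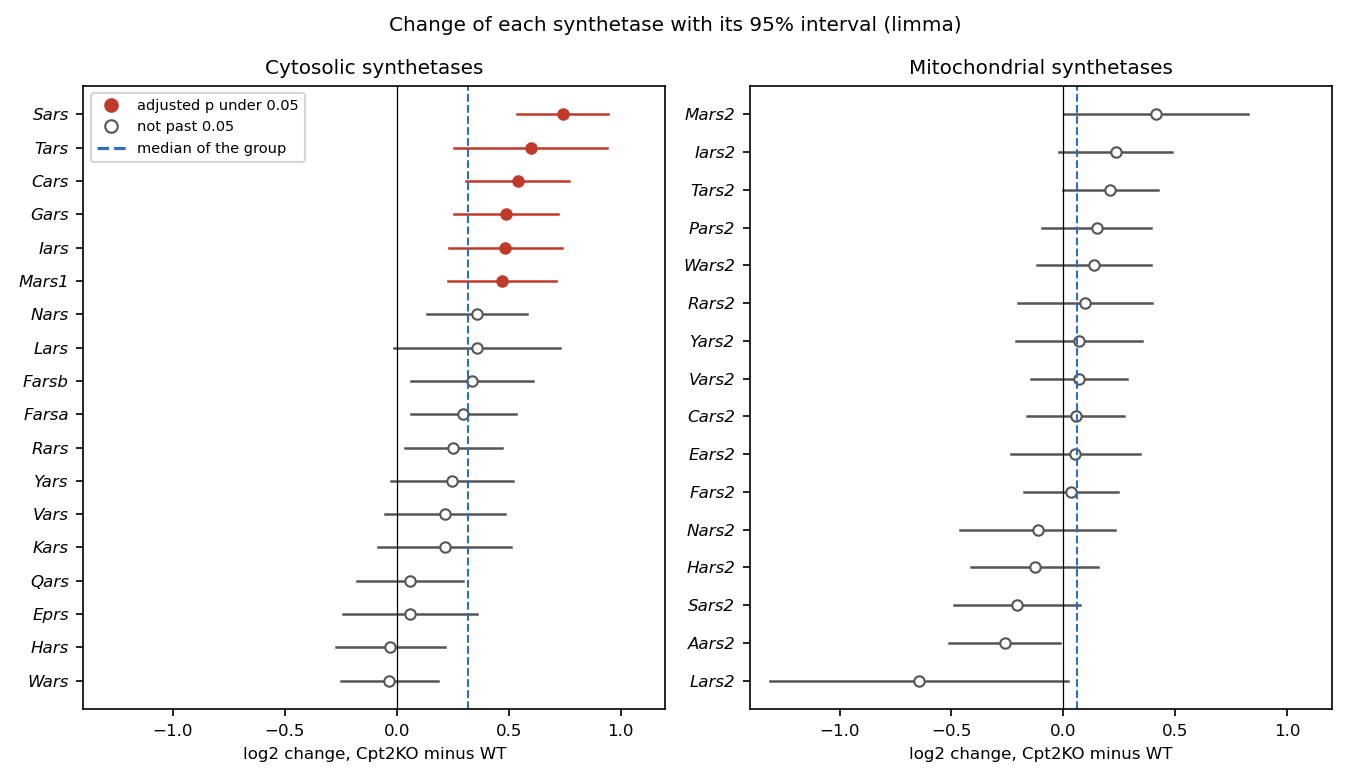
Log2 change, Cpt2KO minus WT, with its 95% interval from limma (x axis) for each cytosolic (left) and mitochondrial (right) synthetase; filled red marks passed adjusted p 0.05 and the dashed line is the group's median. The median is 0.32 in the cytosolic panel, where 6 of 18 genes passed, and 0.06 in the mitochondrial panel, where 0 of 16 passed.

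The mitochondrial enzymes scattered on both sides of 0, with 11 changes above and 5 below. Mars2, for methionine, had the largest positive one, with 4.38, 4.11 and 4.41 in Cpt2KO livers, against 3.970, 4.201 and 3.502 in WT livers (change 0.41, SE 0.18, adjusted p = 0.247 by limma). The groups overlapped through WT replicate 2, and the WT values had an SD of 0.36. Without WT replicate 3 the change of Mars2 was 0.22, below the 0.25 of Iars2 in that fit. Iars2 changed by 0.23 (adjusted p = 0.289 by limma) and Tars2 by 0.21 (adjusted p = 0.252 by limma). Aars2, the mitochondrial alanyl enzyme, had 5.13, 5.36 and 5.33 in Cpt2KO livers, against 5.57, 5.41 and 5.62 in WT livers (change -0.26, adjusted p = 0.222 by limma), the single gene of the 16 with all Cpt2KO values below all WT values. Sars2 changed by -0.21 (adjusted p = 0.423 by limma). The other 10, apart from Lars2, lay between -0.13 and 0.15.

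Lars2, the mitochondrial leucyl enzyme, had a change of -0.64 whose size depended on which WT array was left out. Its probe set with the highest mean gave 10.30, 10.43 and 10.23 in Cpt2KO livers, against 10.80, 11.71 and 10.38 in WT livers (95% interval -1.31 to 0.02, adjusted p = 0.267 by limma). The groups overlapped through WT replicate 3, and WT replicate 2 stood alone at the top. Without WT replicate 2 the change was -0.27 and without WT replicate 3 it was -0.94. In the other fits with 1 array left out it was -0.73 to -0.60. A further Lars2 probe set read far lower, at 4.74, 4.59 and 4.89 in Cpt2KO livers, against 4.75, 4.82 and 4.90 in WT livers, a difference of -0.09. The annotation names a further probe set with both Lars2 and the ribosomal RNA gene Rn28s1. Whether ribosomal RNA reaches the bright probe set was not tested.

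To set the compartments side by side, each array's value was taken relative to the gene's WT mean and the median over the enzymes was formed. For the cytosolic enzymes this median was 0.32, 0.25 and 0.40 in the Cpt2KO livers, against 0.03, -0.06 and 0.02 in the WT livers. For the mitochondrial enzymes it was 0.0046, 0.09 and 0.13 in the Cpt2KO livers, against 0.06, -0.05 and -0.01 in the WT livers. The cytosolic median was thus higher in each Cpt2KO liver than in any WT liver, while the mitochondrial ones overlapped. The difference between the compartments was 0.24 ± 0.08 in Cpt2KO livers and -0.0043 ± 0.03 in WT livers (SD, n = 3 each). The WT value lies near 0 because each gene's WT mean was subtracted, so it is no result about WT livers. No test of these medians was made. The mitochondrial probe sets were mostly dimmer than the cytosolic ones. In mean log2 signal, Fars2 stood at 2.95, Wars2 at 3.40 and Pars2 at 3.45, though Lars2 stood at 10.64. The lowest cytosolic means were 3.37 in Wars and 4.84 in Yars. Fars2, near the median of all probe sets (2.88), was removed by the filter on dim genes. With that filter the cytosolic minus mitochondrial median change was 0.25. Whether dim signals reduced the mitochondrial changes was not tested.

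For 12 amino acids 1 cytosolic and 1 mitochondrial gene could be paired. The cytosolic change exceeded the mitochondrial one in 11 of them, with a median difference of 0.21. The gap was 1.003 for leucine, which rests on the Lars2 values above, and 0.95 for serine, where Sars changed by 0.74 and Sars2 by -0.21. It was 0.48 for cysteine, 0.47 for asparagine, 0.39 for threonine and 0.25 for isoleucine. For methionine the changes were 0.47 for Mars1, which rose, and 0.41 for Mars2, which did not pass, a gap of 0.06. Without WT replicate 3 they were 0.55 for Mars1 and 0.22 for Mars2. Tryptophan was the exception, with -0.03 for Wars and 0.14 for Wars2. In 5 pairs, leucine, serine, cysteine, asparagine and isoleucine, the array-by-array gap did not overlap between genotypes. Each of these had p = 0.1 in a two-sided exact permutation test, the smallest that 3 against 3 arrays allow, and adjusted p = 0.24 over the 12 pairs, so no pair could pass 0.05 in this test, which tells nothing of whether the gaps differ.

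**Figure D4:**
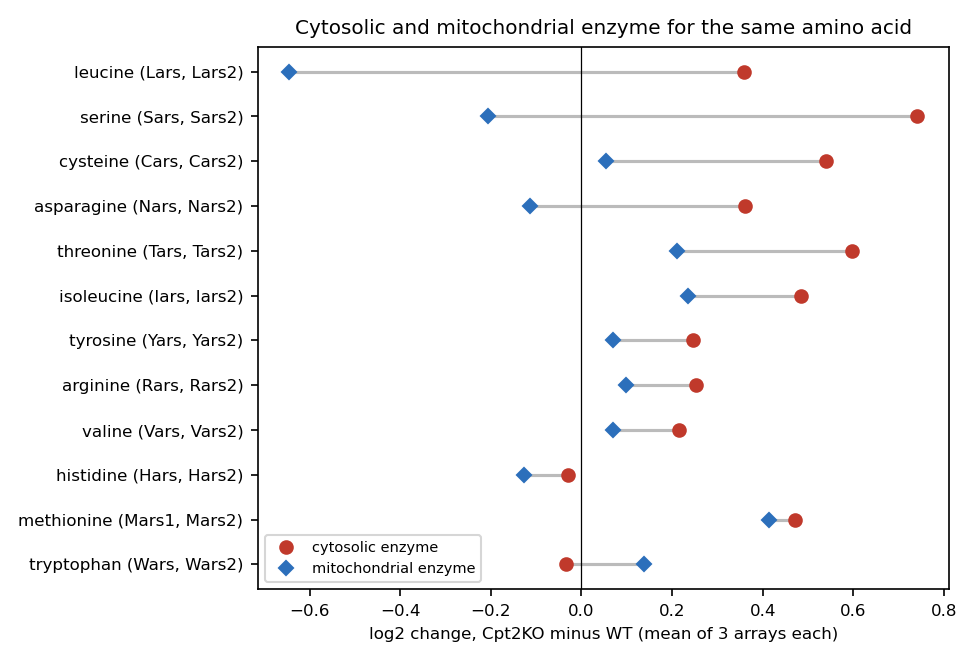
Log2 change, Cpt2KO minus WT (x axis), of the cytosolic enzyme (red dot) and the mitochondrial enzyme (blue diamond) for 12 amino acids, ordered by the gap between them. The dot lies to the right of the diamond in 11 of 12 rows, tryptophan being the exception, and the gap is 0.95 for serine and 0.06 for methionine.

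Asns makes asparagine and is not a synthetase of tRNA. Its signal was 5.13, 5.05 and 4.65 in Cpt2KO livers, against 4.97, 4.31 and 4.12 in WT livers. The groups overlapped through WT replicate 1, which lay above Cpt2KO replicate 3, and the change of 0.47 did not pass (SE 0.22, 95% interval -0.04 to 0.99, adjusted p = 0.291 by limma). Without WT replicate 1 the change was 0.72 with an adjusted p of 0.0498 by limma, and in the other alternatives the adjusted p ran from 0.078 to 0.693. The lowest of these was with listed age as a covariate, where the change of Asns was 1.47.

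Genes upstream of and beside the synthetases in the stress pathway were read in the same fit. Eif2ak3, the eIF2 kinase of the endoplasmic reticulum (PERK), rose, with 6.17, 5.95 and 6.08 in Cpt2KO livers, against 5.206, 5.008 and 5.2002 in WT livers (change 0.93, adjusted p = 0.0015 by limma). Ppp1r15a, the phosphatase subunit that reverses eIF2 phosphorylation, rose by 0.68 (adjusted p = 0.0044 by limma), and the other 3 measured genes of that list did not pass. Both calls held in all 6 fits with 1 array left out and were lost with every probe set tested and with listed age as a covariate. Of 26 measured ATF4 pathway genes outside the synthetases, 11 rose (42.3%) and 0 fell, with a median change of 0.35, beside the 6 of 18 among cytosolic synthetases and 4.74% of all genes. Fgf21, a fasting hormone, rose by 2.58, the transcription factor Atf3 by 2.42 and the stress protein Nupr1 by 1.43. Atf4 itself, singled out after its values were seen, had 7.11, 6.85 and 7.18 in Cpt2KO livers, against 6.49, 6.23 and 6.52 in WT livers (change 0.64, adjusted p = 0.019 by limma). The Atf4 call was lost without WT replicate 2, Cpt2KO replicate 1 or Cpt2KO replicate 3 (adjusted p up to 0.0699 by limma), and the count of 11 was 7 without WT replicate 2. It was 4 when every probe set was tested, 6 without moderated variances and 2 with listed age. ATF4 protein was not measured, and eIF2 phosphorylation was not either.

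**Figure D5:**
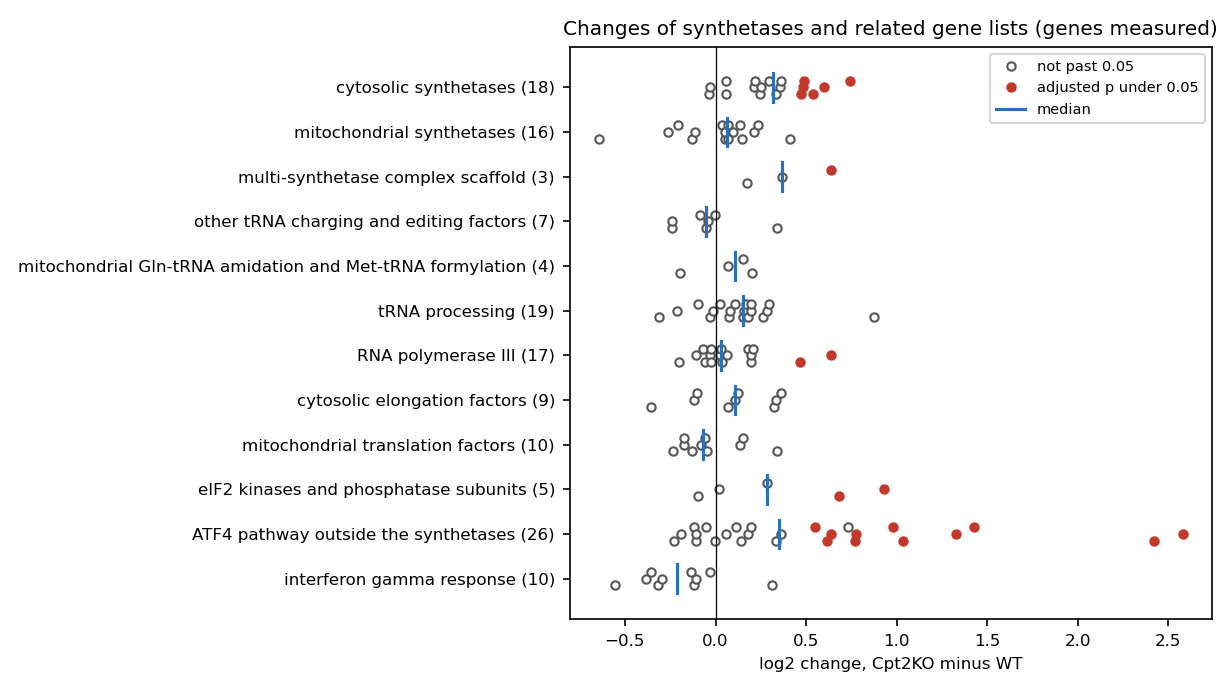
Log2 change, Cpt2KO minus WT (x axis), of each measured gene of the synthetase groups and of 10 related lists (number of genes in brackets); red dots passed adjusted p 0.05 and the blue bar is the median. Red dots appear in the cytosolic synthetases (6 of 18), the scaffold (1 of 3), RNA polymerase III (2 of 17), the eIF2 list (2 of 5) and the ATF4 list (11 of 26).

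The rest of the machinery around tRNA was read beside 4.74% of all genes called higher and 3.49% lower. At those shares, 0 calls in a list this small, here or in the next paragraph, says little. Of 17 measured genes of RNA polymerase III, which transcribes tRNA genes, the subunits Polr3d (0.64, adjusted p = 0.014 by limma) and Polr3e (0.47, adjusted p = 0.026 by limma) rose (11.8%), and the list's median was 0.03. Polr3e kept its call in 1 of the 6 fits with 1 array left out, the one without WT replicate 3, and Polr3d in all 6. Both calls were lost with every probe set tested, without moderated variances and with listed age, and that of Polr3e also with median centring. Of 19 tRNA processing genes 0 were called by limma, with 3 at an unadjusted p under 0.05. The change with the largest size was that of the tRNA 3′-end nuclease Elac1 (0.88, adjusted p = 0.170), whose groups overlapped. Other charging and editing factors (7 measured, 0 called, 0 at an unadjusted p under 0.05 by limma) were led in size by Prorsd1 at 0.34.

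In mitochondria, the amidation and formylation list (4 measured) had 0 calls by limma and 0 genes at an unadjusted p under 0.05, with its largest change, 0.20, in Qrsl1, the catalytic subunit of the enzyme that makes glutamine tRNA there. Of 10 mitochondrial translation factors 0 were called by limma, 1 had an unadjusted p under 0.05, and the initiation factor Mtif3 changed most in size (0.34, adjusted p = 0.167). Of 9 cytosolic elongation and termination factors 0 were called by limma and 4 had an unadjusted p under 0.05, with Eef1d at 0.36 (adjusted p = 0.065). Wars is induced by interferon gamma in human cells, so genes of that response were read beside it. Of 10 measured, 0 were called by limma and 5 had an unadjusted p under 0.05, with a median of -0.22 and Irf1 at -0.55 (adjusted p = 0.059).

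Marker genes of liver cell types moved in some lists, beside 4.74% of all genes called higher and 3.49% lower. Of 4 measured hepatocyte markers, Alb (-0.69) and Ttr (-0.51) fell, and the mean log2 level of the list was 10.88 to 11.11 in Cpt2KO livers, against 11.24 to 11.41 in WT livers. Of 6 Kupffer cell and macrophage markers, Cd68 rose by 2.32 and Marco fell by 0.52, while the median of the list was -0.35 and 5 genes had an unadjusted p under 0.05, with list levels of 6.36 to 6.63 in Cpt2KO livers, against 6.22 to 6.67 in WT livers. Of 6 endothelial markers Lyve1 rose by 0.92 and the others did not pass, with a list median of 0.01. The stellate, cholangiocyte, lymphocyte and neutrophil lists had 0 calls by limma (1 gene at an unadjusted p under 0.05, in the cholangiocyte list). Ttr and Marco each kept their call in 1 of the 6 fits with 1 array left out, and Alb, Cd68 and Lyve1 in all 6. With every probe set tested or with listed age as a covariate, of these 5 calls Cd68 alone remained. Genes of the same list differed, as with Tat (-0.09) and Cps1 (-0.14) beside Alb, or Cd68 beside Marco. In whole liver, changes in cell number, in RNA per cell and in single genes cannot be told apart. The part of these shifts in the synthetase values was not tested.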

How the data were processed

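Liver RNA of 6 mice was hybridised to an Affymetrix mouse exon array. The authors deposited log2 values, and Partek, RMA and the build mm9 are named per the submitters' processing notes, with options not given in the sources used here. Probe sets naming 1 gene in the platform annotation (25469 of 115050) were used, taking for each gene the one with the highest mean over 6 arrays. All 6 columns were used, with groups and replicate numbers from the titles. A linear model per gene compared the genotypes with no covariate and with dim genes kept (functions lmFit and eBayes of limma 3.58.1, R 4.3.3). P-values were adjusted by Benjamini-Hochberg over 20242 genes. Residual degrees of freedom were 4, prior ones 4.23, and the fit was tested on simulated data. The number of arrays, 3 per group, limits the precision, and no level is called above background. Promoter sequences and their coordinates are those of RefSeq, GRCm38.p6. Members, lists and the rule for named genes (members past 0.05, the largest changes among the rest, and up to 3 called genes or the largest change of each list) were chosen with earlier results of these data known. Lists held 165 genes, 145 of them measured. Alternatives were other normalization, filtering, probe set choice, variance models, weights, listed age, the replicate number and leaving out arrays.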

Additional observations from a re-analysis of the deposited data

How the results depend on the processing

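The count of 6 cytosolic synthetases higher in Cpt2KO livers was 4 to 7 after quantile normalization, median centring, a filter on dim genes, averaging of probe sets, a trend with robust prior or array weights, and 5 with Kars and Gars left out. It was 0 when the test ran over every probe set, 1 without moderated variances, 0 with listed age as a covariate, and 1 to 5 when 1 array was left out. In the fit over every probe set the adjustment ran over 115050 probe sets. With the replicate number as a block the cytosolic count was 3. Over all genes, 960 were called higher in the main fit and 760 with the block. That number was 90 over every probe set, 388 without moderated variances, 35 with listed age and 538 to 722 with 1 array left out. Deviations of arrays sharing a number correlated at 0.071, 0.183 and -0.082. Arrays with different numbers were not compared in this way, so whether a shared number means a pairing was not settled. In the alternatives run, 0 cytosolic synthetases were called lower and 0 mitochondrial ones in either direction. The cytosolic minus mitochondrial median change was 0.25, and 0.19 with the mean of probe sets, where dim probe sets enter. It was 0.20 to 0.29 when 1 array was left out. Asns passed without WT replicate 1 alone, and its change was 0.30 to 0.72 over the fits with 1 array left out and 1.47 with listed age.

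Signs turned for 11 members, which did not pass in any of these fits. With listed age as a covariate the change was -0.08 for Cars2, -0.36 for Ears2, -0.072 for Eprs, -0.16 for Vars and -0.091 for Vars2. With the mean of probe sets it was -0.064 for Eprs and -0.12 for Farsa, and with array weights -0.011 for Ears2. When 1 array was left out, the lowest and highest changes were -0.025 and 0.16 for Ears2, -0.061 and 0.13 for Eprs, -0.12 and 0.023 for Hars, -0.26 and 0.0002 for Nars2, -0.0059 and 0.12 for Qars, -0.073 and 0.0086 for Wars, and -0.0198 and 0.18 for Yars2. The cause was not tested.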
